A study of Mus musculus with 16 samples.

Results

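The cartilage matrix genes were followed through the single cells of 2 mouse mammary tumor models. The 10 members were taken by name from the 23467 genes of the count tables, and all 10 were detected in at least 3 of the cells kept, as were 18922 genes in all. They are the fibrillar collagens Col2a1, Col11a1 and Col11a2, the fibril-associated collagens Col9a1 and Col9a3, the network collagen Col10a1, the matrix glycoprotein Comp, the proteoglycan core protein Acan, the transcription factor Sox9 and the sulfate-activating enzyme Papss2. The list was drawn up with levels of these genes in these cells already known, so the levels of the members are given as a description and carry no test.

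Both models carry floxed Brca1 and Trp53 alleles that are deleted by Cre under the Wap promoter (WapCre;Brca1F/F;Trp53F/F, called WB1P), and Wap is a whey protein gene that drives Cre in mammary epithelium. In WB1P-Myc the same Cre also switches on a Myc transgene, which sits with a luciferase reporter at the Col1a1 locus. No other treatment was given, ages were not given, and the tumors were at end stage. Live single cells were sorted, with no marker of cell type, and their transcripts counted by Drop-seq, in which each captured molecule carries a unique molecular identifier (UMI) and a cell barcode. Each model gave 4 droplet fractions of 1 cell suspension, so the fractions are technical repeats, each model counts as 1 sample, and no comparison between models was tested. Each suspension was prepared and put into droplets on its own, so model and preparation cannot be told apart, and the cells of each model came from 2 mice, with no fraction tied to either.

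Cartilage is built around fibrils of type II collagen, on which type XI collagen sits in the core and type IX collagen on the surface. Aggrecan, the product of Acan, fills the space between the fibrils with sulfated chondroitin chains, and Comp links collagens to other matrix proteins. Sox9 with Sox5 and Sox6 switches this programme on in chondrocytes, Papss2 supplies the activated sulfate for the chains, and Col10a1 marks the hypertrophic chondrocytes that precede bone. Normal mammary gland holds no cartilage, although cartilage-like (chondroid) matrix is known in some mammary tumors, and Sox9 on its own is also a factor of mammary luminal progenitors.

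The members lie on 10 different chromosomes of the mm10 build (GRCm38) and none is a cluster neighbor of another. Col2a1 lies at chr15:97975602-98004695 on the minus strand, and the others on the plus strand: Col11a1 at chr3:114030540-114220718, Col11a2 at chr17:34039437-34066685, Col9a1 at chr1:24177610-24252684, Col9a3 at chr2:180597790-180622189, Col10a1 at chr10:34389981-34397085, Comp at chr8:70373558-70382066, Acan at chr7:79053483-79115099, Sox9 at chr11:112782224-112787760 and Papss2 at chr19:32595790-32667187. All are protein-coding genes. Tcfl5 overlaps Col9a3 and Nt5dc1 overlaps Col10a1 on the other strand, with 43 UMIs against 2734 and 89 against 772 in the kept cells. Whether counting used the strand was not given in the sources used here.

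The RefSeq promoter windows (250 bases before to 50 after the gene start, GRCm38.p6) held 6 of the 10 members. The gene starts behind these windows are not all those given above. The windows of Acan, Papss2 and Col11a2 end before the starts printed there. All windows were searched on both strands for the SOX core (ACAAAG or ACAATG), the RUNX core (TGTGGT) and a TATA box (TATAAA), and no matches overlapped. Those of 4 members are shown, a pair with a motif and a pair without: Col10a1 and Papss2 hold one, and Acan and Col11a1 hold none, although Papss2, Acan and Col11a1 were all highest in Schwann-like cells. Capitals mark the motif matches.
Col10a1 promoter, chr10:34389731-34390030, + strand: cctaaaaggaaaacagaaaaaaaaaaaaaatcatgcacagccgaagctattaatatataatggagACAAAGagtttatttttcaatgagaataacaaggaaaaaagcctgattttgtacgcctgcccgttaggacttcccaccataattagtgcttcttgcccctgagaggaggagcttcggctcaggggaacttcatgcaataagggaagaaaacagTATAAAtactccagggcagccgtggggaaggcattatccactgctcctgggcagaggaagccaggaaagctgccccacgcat
Papss2 promoter, chr19:32595465-32595764, + strand: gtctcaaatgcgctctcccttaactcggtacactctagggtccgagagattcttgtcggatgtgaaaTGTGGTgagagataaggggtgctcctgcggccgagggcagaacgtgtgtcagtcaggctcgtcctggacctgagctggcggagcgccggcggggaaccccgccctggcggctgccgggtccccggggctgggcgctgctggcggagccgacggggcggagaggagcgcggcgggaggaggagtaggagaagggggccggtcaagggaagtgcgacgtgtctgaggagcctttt
Acan promoter, chr7:79052976-79053275, + strand: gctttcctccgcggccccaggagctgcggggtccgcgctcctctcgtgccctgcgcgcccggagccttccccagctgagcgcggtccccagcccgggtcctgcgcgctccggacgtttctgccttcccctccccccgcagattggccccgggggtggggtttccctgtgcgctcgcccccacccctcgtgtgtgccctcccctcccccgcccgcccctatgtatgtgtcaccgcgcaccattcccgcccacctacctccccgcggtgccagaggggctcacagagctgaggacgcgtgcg
Col11a1 promoter, chr3:114030290-114030589, + strand: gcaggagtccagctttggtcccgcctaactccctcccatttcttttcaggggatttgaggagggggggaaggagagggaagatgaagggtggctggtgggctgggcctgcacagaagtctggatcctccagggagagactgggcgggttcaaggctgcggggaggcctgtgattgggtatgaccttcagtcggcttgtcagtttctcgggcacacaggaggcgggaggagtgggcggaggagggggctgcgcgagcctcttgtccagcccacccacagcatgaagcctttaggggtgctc
The Col10a1 window held a SOX core at position 66 and a TATA box at position 219, counted from the first base shown, and the Papss2 window a RUNX core at position 68. Of the other windows, Col11a2 held a TATA box at position 108 and Col9a1 none of the 3 motifs. Among all 27025 promoter windows, 28.8% held the SOX core, 16.9% the RUNX core and 14.2% the TATA box. A match of letters is only a description of the window.

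A barcode was kept where it had 450 to 4000 genes and less than 20% of its UMIs from mitochondria, which left 1307 WB1P cells (3347371 UMIs, median 1724 per cell) and 3491 WB1P-Myc cells (11943202 UMIs, median 2359 per cell). WB1P fraction 1 stood apart, with 65 kept cells against 394 to 426 in the other WB1P fractions and 756 to 950 in the WB1P-Myc fractions. Only 1 kept barcode was shared between libraries. Cells were grouped without the members and without any other cartilage gene, and the groups were named from markers: epithelial-like (672 WB1P and 1346 WB1P-Myc cells), Schwann-like (1089 cells, all WB1P-Myc), fibroblast-like (218 and 275), macrophage-like (380 and 709) and endothelial-like (37 and 72). Epithelial-like cells of the models came almost wholly from different clusters, 652 of the 672 WB1P cells from 1 and 1338 of the 1346 WB1P-Myc cells from another, and the second had a lower sum of epithelial markers (2334 against 6753 CPM, the UMIs of a gene scaled to a fixed total of 1e+06, summed over 15 markers). Among them Krt8 and Krt18 of luminal cells were lower there, whereas Krt14 of basal cells was 216 against 129 CPM. Under finer clustering only 309 of the 1346 kept an epithelial-like name, and 484 fell into a shallow cluster (median 1117 UMIs) that was led by Neat1, Kcnq1ot1, Lars2 and ribosomal RNA of mitochondria and stayed unnamed. A further 219 and 264 fell into 2 deeper clusters, led by Mfng and by Dlk1, that also stayed unnamed. Epcam, Krt8 and Sox10 were 638, 88.6 and 208 CPM in the Mfng-led cluster. They were 91.1, 98.4 and 11.9 CPM in the Dlk1-led cluster. The Schwann-like name rests on Sox10, Mbp, S100b, Erbb3, Cryab and Fabp7 among its leading markers, genes of the myelinating glia of peripheral nerve, and these cells made up 196 to 357 cells of each WB1P-Myc fraction. Epithelial-like and Schwann-like cells are together called tumor-type here, a name that is assumed for the Schwann-like cells, since whether they descend from the tumor was not tested. Their Epcam and Krt8 were 31.5 and 33.0 CPM, against 32.1 and 24.9 CPM in the fibroblast-like cells of WB1P-Myc, and 555 and 403 CPM in its epithelial-like cells. Their Myc was 118 CPM, against 97.4 CPM in those fibroblast-like cells, 202 CPM in those epithelial-like cells and 67.2 CPM in the epithelial-like cells of WB1P.

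Over all kept cells the summed level of the 10 members was 785 CPM in WB1P and 2744 CPM in WB1P-Myc, a log2 ratio of 1.81 (95% counting interval 1.75 to 1.86, SD over fractions 0.31). Intervals here cover counting error only. In WB1P-Myc 95.3% of the member UMIs lay in tumor-type cells, with 78.5% in Schwann-like and 16.8% in epithelial-like cells, and in WB1P 91.4% lay in epithelial-like cells. The summed level was 5578 CPM in Schwann-like cells, against 1138 in the epithelial-like, 935 in the fibroblast-like, 456 in the macrophage-like and 200 in the endothelial-like cells of WB1P-Myc. In epithelial-like cells alone the sum differed between the models by a log2 ratio of -0.05 (-0.12 to 0.02), while single members differed in both directions. Without the shallow unnamed cluster the WB1P-Myc epithelial-like sum was 832 CPM, against 1178 CPM in WB1P. The level in a class is per UMI of that class, so a member can differ between classes because the rest of the transcripts differ.

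**Figure D1:**
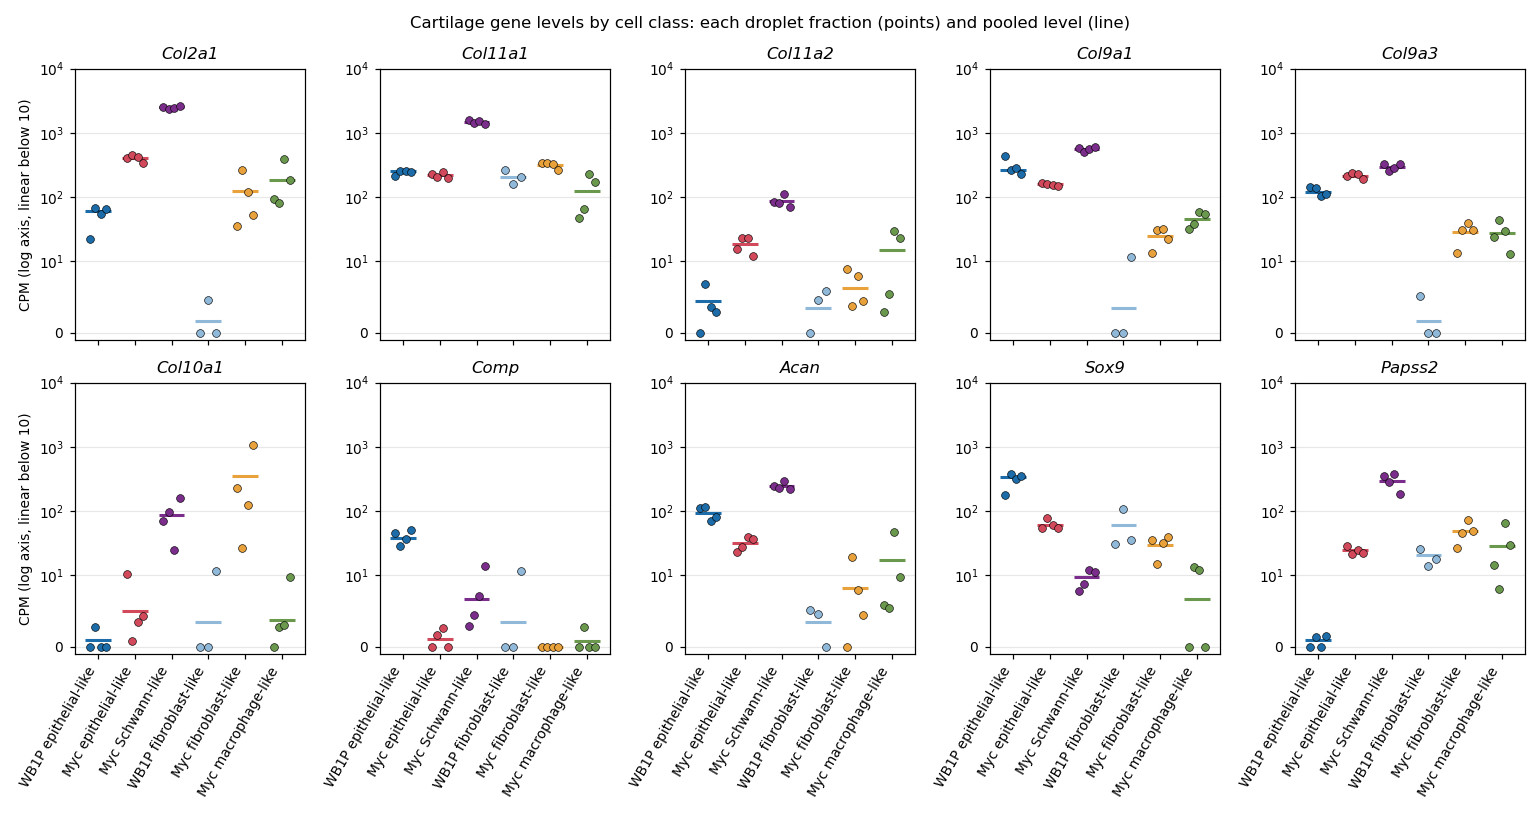
Level of each of the 10 members (CPM, on an axis that is linear near 0 and logarithmic above) by cell class and model. Each point is 1 droplet fraction with at least 20 cells of the class and each line the pooled level. Col2a1, Col11a1, Acan and Papss2 are highest in Schwann-like cells, Comp and Sox9 in WB1P epithelial-like cells, and Col10a1 in WB1P-Myc fibroblast-like cells.

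Col2a1, the fibrillar collagen of cartilage, was the member with the most UMIs (13963 in kept cells). In Schwann-like cells it stood at 2566, 2375, 2443 and 2570 CPM in fractions 1 to 4 (pooled 2493, 2448 to 2539). WB1P-Myc epithelial-like cells gave 400, 460, 416 and 344 CPM (pooled 405; 242 without the 484 cells of the shallow unnamed cluster, which held 1522 CPM), and WB1P epithelial-like cells 22.4, 66.9, 55.1 and 65.5 CPM (pooled 61.3, 51.0 to 73.1). The 3 sets of fractions did not overlap. The log2 ratio of Schwann-like to epithelial-like cells in WB1P-Myc was 2.62 (2.55 to 2.69), or 3.31 without the shallow cluster, and over all settings tried it ranged from 1.79 with cells thinned to 4.31 after subtraction of free RNA. That subtraction took away at least as many member UMIs outside tumor-type cells as were counted there. The log2 ratio of WB1P-Myc to WB1P was 4.54 (4.28 to 4.80) over tumor-type cells and 2.72 within epithelial-like cells. Macrophage-like cells of WB1P-Myc held 184 CPM, against 212 CPM in the 309 cells that kept the epithelial-like name under finer clustering. What part of the WB1P-Myc epithelial-like level was free RNA was not tested. Cells were thinned to 600 UMIs each so that depth was equal: a Col2a1 UMI was then found in 41.0% of Schwann-like cells (exact 95% interval 38.0 to 43.9), in 18.1% of WB1P-Myc and 2.83% of WB1P epithelial-like cells, and in 6.35% of WB1P-Myc and 0.263% of WB1P macrophage-like cells, a type that should lack the gene. The WB1P epithelial-like share came from libraries in which Col2a1 was scarce in every class.

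Col11a1, which joins type II collagen in the fibril core, followed Col2a1 into the Schwann-like cells but not between the models' epithelial-like cells. Schwann-like cells gave 1598, 1445, 1520 and 1361 CPM by fraction (pooled 1488). WB1P-Myc epithelial-like cells gave 225, 202, 246 and 197 CPM (pooled 218) and WB1P epithelial-like cells 213, 252, 257 and 249 CPM (pooled 251). The epithelial-like fractions of the models overlapped, with a log2 ratio of -0.20, but without the shallow cluster the WB1P-Myc level was 123 CPM, below every WB1P fraction. Fibroblast-like cells held the gene in both models, with 207 CPM in WB1P and 318 CPM in WB1P-Myc, a log2 ratio of 0.62 (0.31 to 0.93), and in WB1P their level differed from that of the epithelial-like cells by no more than counting error (log2 ratio of epithelial-like to fibroblast-like 0.27, -0.01 to 0.57). Col11a2, the partner chain, was sparser, at 86.8 CPM in Schwann-like, 18.4 in WB1P-Myc epithelial-like and 4.42 in WB1P epithelial-like cells. Macrophage-like cells of WB1P-Myc held Col11a1 at 126 CPM, near the 123 CPM above, and Col11a2 at 14.8 CPM.

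Col9a1 and Col9a3, chains of the collagen that decorates the fibril surface, differed less between Schwann-like and epithelial-like WB1P-Myc cells than the other collagens did. Col9a1 in WB1P epithelial-like cells was 437, 261, 286 and 229 CPM (pooled 265), where the highest value came from the shallow fraction 1. WB1P-Myc epithelial-like cells gave 165, 161, 154 and 148 CPM (pooled 157), below every WB1P fraction, and Schwann-like cells 582, 502, 563 and 604 CPM (pooled 563), above every one. The WB1P-Myc epithelial-like level was uneven within the class. Of its 761 UMIs, 380 lay in the 219 cells of the unnamed Mfng-led cluster, at 351 CPM. Since the models' tumor-type cells mix these levels, the log2 ratio of Col9a1 between models was only 0.42 (0.29 to 0.56) over tumor-type cells, and -0.75 within epithelial-like cells. Col9a3 was 324, 252, 285 and 323 CPM in Schwann-like cells, 213, 233, 227 and 194 CPM in the epithelial-like cells of WB1P-Myc, and 146, 136, 103 and 112 CPM in those of WB1P. Those fractions did not overlap, but Schwann-like and epithelial-like cells of WB1P-Myc differed by a log2 ratio of only 0.46, the smallest of the 10. That small ratio depends on the Mfng-led cluster, which held 596 of the 1048 epithelial-like Col9a3 UMIs of WB1P-Myc, at 550 CPM. In the 309 cells that kept the epithelial-like name Col9a3 was 148, 128, 109 and 119 CPM, which overlaps the WB1P fractions.

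Acan, the core protein of aggrecan, had the highest level in Schwann-like cells, with 250, 230, 291 and 220 CPM (pooled 247). WB1P epithelial-like cells gave 112, 115, 69.8 and 81.9 CPM (pooled 91.7) and WB1P-Myc epithelial-like cells 23.04, 27.3, 39.9 and 36.7 CPM (pooled 31.4, or 15.4 without the shallow cluster). Within WB1P-Myc the 2 tumor-type classes were thus 2.97 apart on the log2 scale, while within epithelial-like cells the gene was lower in WB1P-Myc, with a log2 ratio of -1.55. Comp, the cartilage oligomeric matrix protein, was highest in WB1P, where epithelial-like cells gave 44.8, 28.7, 36.7 and 50.6 CPM (pooled 38.8), against 2.84, 4.38, 7.05 and 14.03 CPM in Schwann-like cells and 5 UMIs in all WB1P-Myc epithelial-like cells. The finer cluster of Schwann-like cells led by Apod held 28 Comp UMIs, at 7.77, 12.8, 12.99 and 42.8 CPM by fraction, the last within the WB1P range, against 1 UMI in the cluster led by Mbp. Of the 14 UMIs behind the 42.8 CPM, 10 lay in 1 cell. None of the 965213 UMIs of WB1P-Myc fibroblast-like cells was Comp, which allows up to 3.82 CPM.

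Sox9, the factor known to drive cartilage collagens, was ordered differently from Col2a1 over the tumor-type groups. In WB1P epithelial-like cells Sox9 stood at 179, 377, 318 and 355 CPM (pooled 345), where fraction 1 was the lowest. WB1P-Myc epithelial-like cells gave 55.0, 78.6, 59.8 and 53.7 CPM (pooled 61.5), and Schwann-like cells 7.82, 8.77, 12.1 and 11.2 CPM (pooled 9.76). The order of the 3 groups was the reverse of that for Col2a1, again with no overlap of the fractions. The log2 ratio of Schwann-like to epithelial-like cells in WB1P-Myc was -2.66 (-3.14 to -2.20), and of the Sox9 UMIs of WB1P-Myc 78.2% lay in epithelial-like and 11.8% in Schwann-like cells. After thinning to 600 UMIs, 16.1% of WB1P epithelial-like, 2.90% of WB1P-Myc epithelial-like and 0.18% of Schwann-like cells held a Sox9 UMI. The fibroblast-like cells had 59.96 CPM in WB1P and 30.05 CPM in WB1P-Myc, above the Schwann-like level.

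Papss2, which makes the sulfate donor for chondroitin chains, was nearly absent from WB1P epithelial-like cells, with 2 UMIs among 2038376. Schwann-like cells held 346, 279, 376 and 185 CPM (pooled 298) and WB1P-Myc epithelial-like cells 29.0, 21.4, 25.1 and 22.2 CPM (pooled 24.6). Macrophage-like cells of WB1P-Myc held 28.9 CPM, so the epithelial-like level was no higher than in a stromal class. Whether that level was free RNA was not tested. By contrast, Col9a1, Col9a3 and Sox9 were 157, 216 and 61.5 CPM in those epithelial-like cells, against 45.9, 28.1 and 6.66 CPM in macrophage-like cells. The lowest Schwann-like fraction was far above the highest epithelial-like one, and the log2 ratio of the 2 classes was 3.60. Against WB1P the ratio over tumor-type cells was 7.33 with a wide counting interval (5.48 to 10.4), because it rests on those 2 UMIs.

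A gene was called higher or lower where it had at least 50 UMIs over both groups, differed by at least 2-fold in pooled level, and had no overlap of the 4 fractions of each group. These fractions are technical, so a call describes these suspensions. Across tumor-type cells of WB1P-Myc against WB1P, 14.5% of 10932 genes were called higher and 9.30% lower, and of the 10 members 6 were called higher (Col2a1, Col11a1, Col11a2, Col9a3, Col10a1 and Papss2) and 2 lower (Comp and Sox9), with Col9a1 and Acan not called. The median log2 ratio was 1.42 for the members and 0.09 for all genes. For Schwann-like against epithelial-like cells 9.78% of 10285 genes were called higher and 7.16% lower, and of the 9 members with enough UMIs 7 were called higher and 1, Sox9, lower, while Col9a3 was not called and Comp was too sparse. The members' median was 2.62 and that of all genes 0.02. In fibroblast-like cells of WB1P-Myc against WB1P the background was 1.65% of 4426 genes higher and 0.226% lower, and of 5 members with enough UMIs Col2a1 and Col10a1 were called higher and none lower. The members were chosen with these contrasts known, so nothing is read from their counts.

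Within the Schwann-like cells the programme was uneven. Clustered more finely, still without cartilage genes, nearly all of them fell into 2 clusters, which also took in 7 and 61 epithelial-like cells: one led by Apod (487 cells, 95 to 154 in each WB1P-Myc fraction, median 2508 UMIs), a lipocalin known in the Schwann cells of nerve, and one led by Mbp (651 cells, 115 to 210 in each fraction, median 3745 UMIs), the myelin basic protein. Col2a1 was 4888, 4671, 4032 and 6123 CPM in fractions 1 to 4 of the Apod-led cluster and 1039, 1036, 984 and 1035 CPM in the Mbp-led cluster. Acan was 573, 549, 590 and 565 CPM against 54.15, 51.4, 70.4 and 54.04 CPM. The deeper Mbp-led cells therefore had the lower levels in every fraction, and the log2 ratios were 2.25 for Col2a1, 2.21 for Col11a1 and 3.33 for Acan.

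Other members were spread differently over the 2 clusters. Col9a1 was 684, 444, 655 and 611 CPM in the Apod-led and 525, 534, 483 and 610 CPM in the Mbp-led cluster, and Col9a3 had a log2 ratio of 0.33, neither of them called, while the type IX chain outside the members, Col9a2, was called higher in the Apod-led cluster. Papss2 was 472, 455, 478 and 223 CPM against 271, 179, 299 and 169 CPM, so the fractions overlapped, but within each of the 4 fractions the Apod-led cluster was the higher. Sox9, with 43 UMIs in both clusters, lay mostly in the Apod-led cluster, at 11.7, 22.98, 31.2 and 21.4 CPM against 1.13, 2.64, 1.60 and 6.59 CPM. Sox10, the Schwann lineage factor, was 220, 250, 182 and 150 CPM in the Apod-led and 238, 327, 296 and 229 CPM in the Mbp-led cluster, lower in the former within each fraction. Of 8 members with enough UMIs, 3 were called higher in the Apod-led cluster (Col2a1, Col11a1 and Acan) and none lower, beside 10.4% higher and 8.84% lower of 8052 genes; the median was 1.54 for the members and -0.07 for all genes. After thinning to 600 UMIs 53.4% of Apod-led and 21.5% of Mbp-led cells held at least 3 matrix UMIs, that is UMIs of the 8 members other than Sox9 and Papss2.

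**Figure D2:**
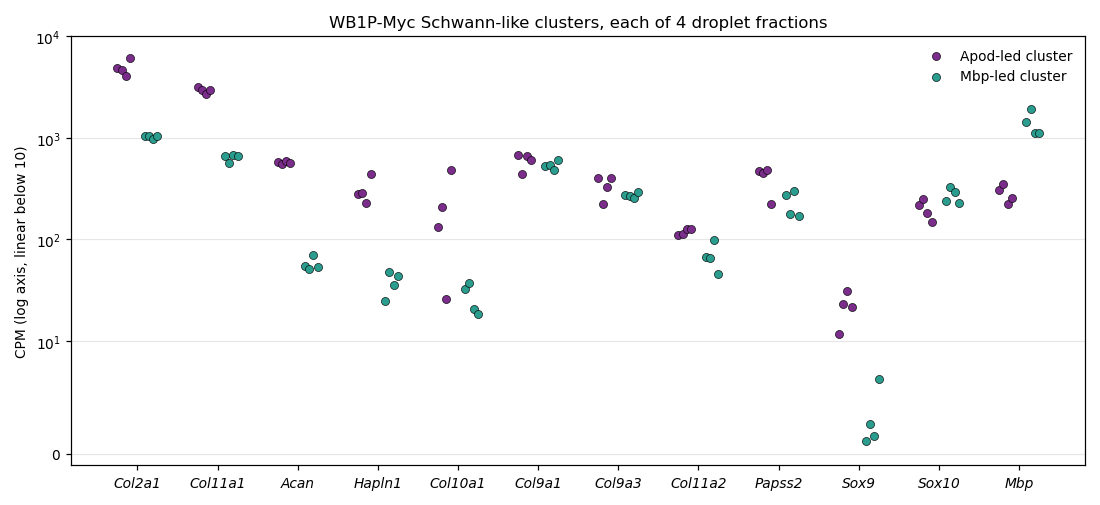
Level (CPM, on an axis that is linear near 0 and logarithmic above) of 12 genes in the Apod-led and Mbp-led clusters of Schwann-like cells, 1 point for each of the 4 WB1P-Myc fractions. Col2a1, Col11a1, Acan and Hapln1 are higher in every fraction of the Apod-led cluster, Mbp is higher in every fraction of the Mbp-led cluster, and Col9a1 and Sox10 overlap, although Sox10 is lower in the Apod-led cluster within each fraction.

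Single cells carried several members together. Among Schwann-like cells the median was 4 of the 10 members per cell and 36.6% held 5 or more, with a maximum of 9. The median was 1 in epithelial-like cells of either model, where 4.09% (WB1P-Myc) and 4.76% (WB1P) held 5 or more. Only 1 of 275 fibroblast-like and 7 of 709 macrophage-like WB1P-Myc cells did so. These counts are at each cell's own depth. Once thinned to 600 UMIs, 26.5% of Schwann-like, 5.65% of WB1P-Myc epithelial-like and 1.64% of WB1P epithelial-like cells held 3 or more members. At least 3 matrix UMIs were held by 76.3% of Schwann-like, 35.6% of WB1P-Myc epithelial-like and 29.5% of WB1P epithelial-like cells at their own depths, and by 36.9%, 9.29% and 3.27% once thinned to 600 UMIs, against 0.56% of macrophage-like cells. The UMIs were also unevenly shared: of the 13831 Col2a1 UMIs of WB1P-Myc, found in 1543 cells, 50% lay in 80 cells and 417 in a single cell. For Col9a1 202 cells held 50% of the UMIs and for Papss2 118, but for Col10a1 only 5.

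Tumor-type cells of WB1P-Myc were also sorted by their own marker UMIs after thinning to 600, with 2 UMIs of a list needed to be positive. Col2a1 was 358 CPM in the 404 tumor-type cells with epithelial markers alone, 1843 CPM in the 669 with Schwann markers alone, 1487 CPM in the 1331 with neither, and 3488 CPM in the 30 with both, where the fractions ranged from 343 to 7033. Sox9 ran the other way, at 99.8 CPM with epithelial markers alone and 4.73 CPM with Schwann markers alone. Papss2 was 28.5 and 288 CPM and Acan 35.6 and 202 CPM in these classes. Within tumor-type cells the members thus differed by marker class too, and the small class with both marker sets was too uneven over fractions to place.

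Col10a1, the collagen of hypertrophic cartilage, was found in 2 kinds of cell. In Schwann-like cells it stood at 71.1, 95.6, 25.2 and 161 CPM (pooled 88.1), and in fibroblast-like cells of WB1P-Myc at 229, 26.6, 123 and 1073 CPM (pooled 345, 309 to 384). The fibroblast-like fractions overlapped the Schwann-like ones, with fraction 2 near the lowest of them and fractions 1 and 4 above all of them. WB1P held 4 Col10a1 UMIs in all its kept cells.

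Schwann-like carriers were rich in Col2a1. At 600 UMIs per cell a Col10a1 UMI was in 2.66% of Schwann-like (1.79 to 3.80) and 5.09% of fibroblast-like cells (2.81 to 8.39), and in none of 709 macrophage-like cells, which allows up to 0.519%. Of 129 Schwann-like cells with a Col10a1 UMI, 21 held 3 or more, and 20 of those 21 also held Col2a1. So did 687 of the 960 Schwann-like cells with no Col10a1. In these 21 cells Col2a1 reached 11137 CPM, against 2008 CPM in the 960 Schwann-like cells with no Col10a1, while Acta2, smooth muscle actin, was at 16.3 CPM. The richest cell, of fraction 4, held 121 Col10a1 and 417 Col2a1 UMIs among 15255, so the same cell topped both genes.

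Among the fibroblast-like carriers those with the most Col10a1 held no Col2a1. The 333 Col10a1 UMIs of fibroblast-like cells lay in 20 cells, and 10 cells with 3 or more held 321 of them, 3, 1, 2 and 4 cells in fractions 1 to 4. A single cell of fraction 4 held 196 UMIs, and the next cells 30, 25, 20 and 17. Not 1 of the 37728 UMIs of those 10 cells was Col2a1, which allows up to 97.8 CPM, whereas 2 of the 10 cells with 1 or 2 Col10a1 UMIs held it, with 61 and 1 UMIs. The 255 fibroblast-like cells without Col10a1 held Col2a1 at 64.6 CPM, in 40 cells. That level is below the 97.8 CPM bound, so the absence of Col2a1 does not set the 10 cells apart. The Acta2 of the 10 richest cells was 2518 CPM (2037 to 3078) against 1020 CPM (955 to 1089) in the 255 fibroblast-like cells without Col10a1, and Tagln, transgelin, another gene of contractile cells, 2094 against 647 CPM. Rgs5, a marker of pericytes, was 716 (472 to 1041) against 405 CPM (365 to 449), but the 5 cells richest in Col10a1 held 0 Rgs5 UMIs, so the pooled level came from the other 5. The fibroblast genes Postn, periostin, and Lrrc15 were 1007 against 2856 CPM and 239 against 398 CPM. Dcn, the small proteoglycan decorin of resting fibroblasts, was 186 against 3218 CPM, and Col1a1 3684 against 7115 CPM. Without the top cell the fibroblast-like level was 143 CPM, and without the top 10 cells 12.9 CPM. The Schwann-like level was also concentrated, with 59.1% of its UMIs in 10 cells, and was 62.04 CPM without its top cell and 36.5 CPM without its top 10. These cells were picked by their Col10a1 UMIs, and the other genes are given as their description.

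**Figure D3:**
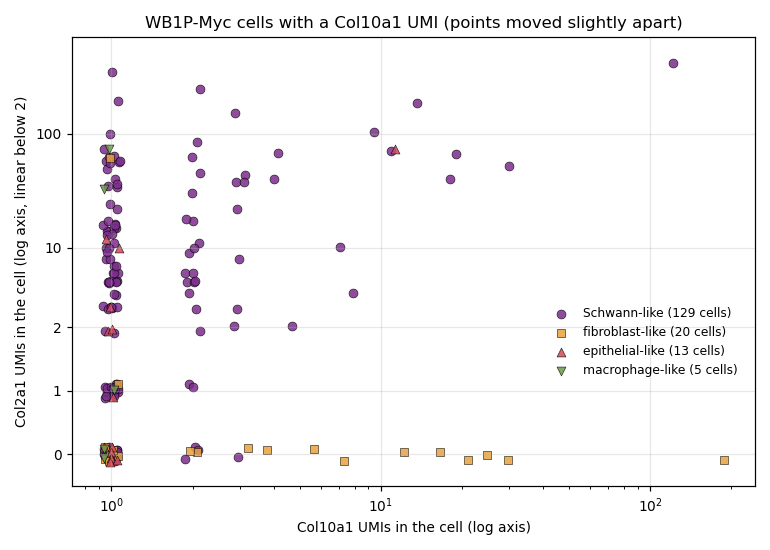
Col10a1 against Col2a1 UMIs in each WB1P-Myc cell with at least 1 Col10a1 UMI, on a logarithmic Col10a1 axis and a Col2a1 axis that is linear near 0 and logarithmic above, with points moved slightly apart and colored by class (129 Schwann-like, 20 fibroblast-like, 13 epithelial-like and 5 macrophage-like cells). All 10 fibroblast-like cells with 3 or more Col10a1 UMIs lie at 0 Col2a1, whereas 20 of 21 such Schwann-like cells hold Col2a1. Among cells with no Col10a1 UMI, not shown, 40 of 255 fibroblast-like and 687 of 960 Schwann-like cells held Col2a1.

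Matrix reads outside the tumor-type cells were set against reads of glial markers, because free RNA from lysed Schwann-like cells would bring all their genes into other droplets in 1 ratio. Each level in a stromal class was written as a percentage of the Schwann-like level, for the 8 members with at least 50 UMIs in Schwann-like cells and for 4 of the 12 Schwann markers (Sox10, Mbp, S100b and Cdh19). The other Schwann markers were not set beside the members 1 by 1. In macrophage-like cells of WB1P-Myc the members stood at a median of 8.30% (4.20 to 17.1) and the markers at 6.43% (5.24 to 10.2). Col11a2, on 20 UMIs, was the 1 member above all 4 markers, at 17.1% (10.3 to 26.7) against 10.2% (7.01 to 14.3) for Sox10, and those intervals overlap. Col2a1 was at 7.39% (6.50 to 8.38) and Col11a1 at 8.46%. The macrophage-like matrix reads therefore came in about the proportion of these 4 glial markers, and their source was not tested further.

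Those reads were also gathered in a few deep cells. Col2a1 in macrophage-like cells of WB1P-Myc was 94.2, 81.4, 390 and 183 CPM by fraction, and 73 of its UMIs came from 1 cell of fraction 3. The 10 macrophage-like cells with the most Col2a1 had a median of 7746 UMIs against 1497 in the other 699, with Col2a1 at 2110 against 85.6 CPM. Schwann markers summed to 1306 CPM in those 10 cells and 198 CPM in the others, and macrophage markers to 18171 and 24367 CPM. Whether such droplets held more than 1 cell was not tested.

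Fibroblast-like cells of WB1P-Myc differed by gene. The same 4 markers stood at a median of 3.92% (0 to 6.28) of the Schwann-like level and the members at 8.46% (3.36 to 392), with 5 of 8 members above all 4 markers. Col10a1 was at 392% (338 to 454), Col11a1 at 21.4% (19.0 to 24.0), Papss2 at 16.3% (11.9 to 21.8), Col9a3 at 9.75% (6.46 to 14.2) and Col11a2 at 7.16% (2.61 to 15.7). Of these intervals those of Col10a1 and Col11a1 lay above those of all 4 markers. The interval of Papss2 overlapped that of Cdh19, that of Col9a3 those of Sox10, S100b and Cdh19, and that of Col11a2 those of all 4 markers. For Col9a3 the level of 29.01 CPM was also close to the 28.1 CPM of the macrophage-like class. Col2a1 at 4.99% (4.13 to 5.97) lay among the markers, beside Sox10 at 6.28% and S100b at 4.99%. Summed Schwann markers were 276 CPM in fibroblast-like cells of WB1P-Myc (224 to 361 by fraction, with 4 of 12 at 0) and 3860 CPM in Schwann-like cells. The 12 together thus stood at a larger share of the Schwann-like level than any of the 4. How many members lie above the markers therefore depends on the markers used.

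Col2a1 itself was thinly and unevenly held by fibroblast-like cells. It was 35.9, 266, 119 and 52.8 CPM by fraction, with 61 of its 120 UMIs in 1 cell of fraction 2, and 35.7 CPM outside the top 10 cells. Its log2 ratio to the macrophage-like level was -0.57 (-0.89 to -0.25), smaller than the spread over fractions (SD 1.68), and leaving out fraction 3 turned it to 0.12. Thinned to 600 UMIs, 2.91% of fibroblast-like against 6.35% of macrophage-like cells held a Col2a1 UMI, so the share was no higher than in a type that should lack the gene. The direction of the level between these classes also turned under other settings. Col11a1 was different: at equal depth it was in 9.82% of fibroblast-like and 4.09% of macrophage-like cells of WB1P-Myc, and in 11.9% and 0.79% of those of WB1P, with log2 ratios of 1.34 (1.06 to 1.62) and 3.52 between the classes. Its fibroblast-like level by fraction was 345, 338, 326 and 259 CPM in WB1P-Myc, and 260, 162 and 207 CPM in WB1P fractions 2 to 4, where fraction 1 held only 2 such cells.

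**Figure D4:**
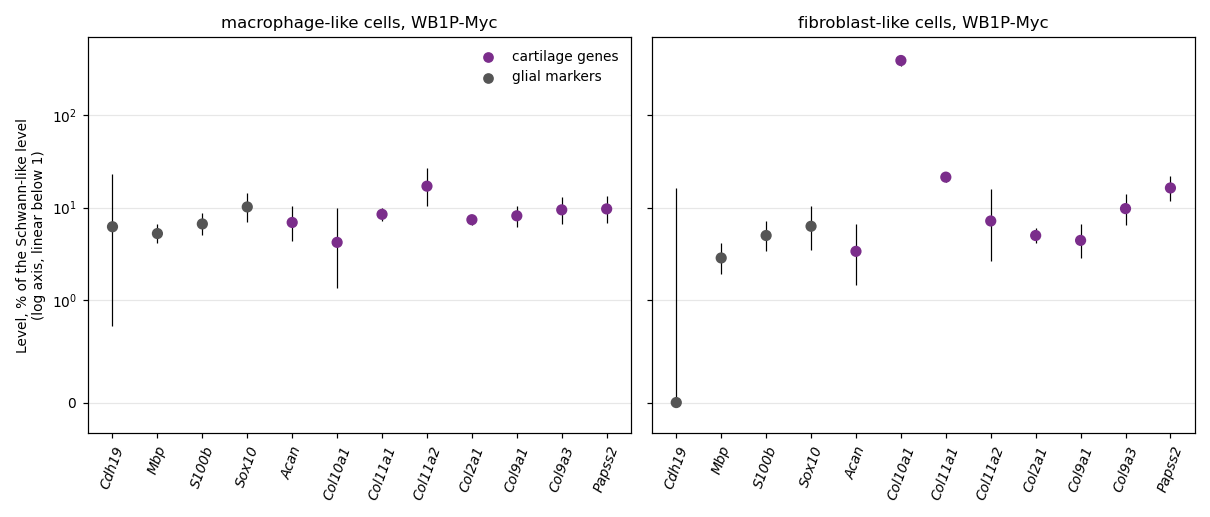
Level of 8 members and 4 Schwann markers in macrophage-like and fibroblast-like WB1P-Myc cells as a percentage of the Schwann-like level (logarithmic axis, linear near 0), with exact 95% intervals as lines. Above all 4 markers lie Col11a2 in macrophage-like cells and Col10a1, Col11a1, Papss2, Col9a3 and Col11a2 in fibroblast-like cells, but only the intervals of Col10a1 and Col11a1 in fibroblast-like cells are clear of those of all 4 markers.

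Which other genes shared a member's pattern was described over 18 units of 1 class in 1 WB1P-Myc fraction, as Pearson's r of log2(CPM + 10), with no p because units share libraries and depth. The genes most like Col2a1 were Acan (r = 0.97), Gal3st1 (0.97), Col9a1 (0.97), Col20a1 (0.96) and Wfdc12, Eno1b, Bcas1 and Acsbg1 (0.95 each), where Gal3st1 makes the sulfatide of myelin and Bcas1 marks myelin-forming cells. Among the members, Col11a2 had 0.88, Col9a3 0.84, Col11a1 0.82 and Papss2 0.77, but Col10a1 0.06 and Sox9 0.03. The genes most like Col10a1 were Entpd2 (0.94), Tmeff2 (0.88), Glis3 and Fxyd1 (0.87), Pycr1, Syn3 and Gucy1b3 (0.86) and Chl1 (0.85).

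Genes that differed most between cells with at least 3 matrix UMIs and cells with none were also listed. In Schwann-like cells (831 against 91 cells, median 3720 against 1781 UMIs) Hapln1, the link protein that ties aggrecan to hyaluronan, was 158 CPM in carriers and 0 in the others, and Ucma, a protein of growth plate cartilage, 58.3 CPM and 0. In WB1P epithelial-like cells (198 against 252) Apod was 180 against 11.7 CPM and Cytl1, a cytokine-like protein, 512 against 38.8 CPM. In WB1P-Myc fibroblast-like cells (54 against 140) the list held Igfbp2 (1057 against 41.4 CPM), Igfbp3, Tagln (1581 against 340 CPM) and Fmod, fibromodulin. Carriers were the deeper cells, and the part of depth in these lists was not tested.

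The rest of the cartilage programme was read from lists. Of 17 other cartilage matrix and chondrocyte genes found, 15 had enough UMIs, and 11 were called higher and 1 lower in WB1P-Myc tumor-type cells, 10 higher and none lower in Schwann-like against epithelial-like cells, beside 14.5% and 9.30% of all genes in the former comparison and 9.78% and 7.16% in the latter. Hapln1 was 1.47 CPM in WB1P epithelial-like, 11.6 in WB1P-Myc epithelial-like and 135 in Schwann-like cells, and within the latter 300 CPM in the Apod-led and 37.3 CPM in the Mbp-led cluster. Lect1, chondromodulin, was 308 against 25.1 CPM and Ucma 124 against 9.58 CPM in those clusters. Col9a2, the third type IX chain, was 43.7, 62.6 and 297 CPM in the 3 tumor-type groups. Not every gene followed: Cytl1 was 286 CPM in WB1P epithelial-like cells, 14.2 in WB1P-Myc epithelial-like cells and 155 in Schwann-like cells, and Mia, a secreted cartilage and melanoma protein, was called lower in WB1P-Myc, with 157 CPM in WB1P. In the split of the Schwann-like cells 9 of 14 were called higher in the Apod-led cluster and Scrg1 lower, beside 10.4% and 8.84% of all genes.

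Among the chondrogenic regulators Sox6 was 1.47, 15.3 and 60.5 CPM, Sox5 51.5, 20.4 and 59.4 CPM and Wwp2, a ubiquitin ligase whose gene hosts a cartilage microRNA, 76.0, 87.8 and 269 CPM in WB1P epithelial-like, WB1P-Myc epithelial-like and Schwann-like cells. These 3 of 8 were called higher in Schwann-like cells, where Trps1, Barx2, Bmpr1b and Foxc1 were called lower, beside the 9.78% and 7.16% of all genes that apply to each list of this paragraph. Sox6 was thus ordered like Col2a1 over the 3 groups, whereas Sox5 was not. Of 10 genes of sulfation and chondroitin synthesis 5 were called higher in Schwann-like cells and none lower: Slc26a2, the sulfate transporter (50.6 CPM in epithelial-like and 160 in Schwann-like cells), Chst3, Chst11, Csgalnact1 and Ugdh. Of 5 hypertrophy and bone genes Mef2c was called higher and Alpl lower, and Ibsp, bone sialoprotein, was uneven, at 216, 43.4, 0 and 336 CPM over the fractions of the Apod-led cluster. Of 5 tendon genes 3 were called lower in Schwann-like cells, among them Scx (31.8 against 1.95 CPM). In fibroblast-like cells no gene of any of the lists was called between the models, over 2, 0, 3, 7 and 5 genes with enough UMIs. With 2 such cells in WB1P fraction 1, where most genes are at 0, a lower call was nearly out of reach, and 0.226% of all genes had one, so nothing is read from this.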

How the data were processed

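The authors deposited Drop-seq UMI counts per gene for the 1000 largest barcodes of each library (dropseq-tools 1.12 per the methods, build mm10 per the labels; the aligner and annotation are not given in the sources used here). The deposited counts of the 8 HiSeq libraries, 256985 to 4960334 UMIs each, were used as they stand; the MiSeq run of the same libraries served as an alternative. Genes in at least 3 kept cells were clustered in scanpy 1.11.5 (30 components, 20 neighbors, Leiden 0.3, and 0.6 for the finer split; Python 3.11.15), leaving out all cartilage genes. A class was named from at least 3 leading markers. Doublets were not called; only the 4000-gene ceiling limited them. Levels are pooled CPM with exact Poisson intervals, ratios conditional binomial intervals, shares Clopper-Pearson intervals (95%). A group at 0 took a floor of 3 counts, and in the calls so did any group under 3 counts. Calls were checked on simulated counts. edgeR 4.0.16 gave alternative scaling factors only. Named genes are the 10 members, listed cartilage genes with 50 or more UMIs, the 8 genes most like a member, and genes differing most between carriers and other cells (up to 10). The members and lists were chosen with earlier results of these data known. Some Schwann marker genes used to name cells are not reported here.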

Additional observations from a re-analysis of the deposited data

Results flagged for a closer look

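Col2a1 was also found in WB1P-Myc barcodes that the filters left out, at levels above those of the same barcodes in WB1P. Barcodes with under 450 genes held 1346 CPM (277 UMIs in 319 barcodes), against 32.3 CPM in 2639 such WB1P barcodes. Barcodes with over 4000 genes held 672 CPM (3007 UMIs in 134 barcodes), against 47.0 CPM in 40 of WB1P. Barcodes with 20% or more mitochondrial UMIs held 607 CPM (91 UMIs in 144 barcodes), against 52.1 CPM in 381 of WB1P. These 3 values come from barcodes outside the main comparisons. Some of them enter the alternative settings with looser gene limits, and those with under 450 genes gave the profile for subtracting free RNA. In a check for a fraction far from the other 3 of its group, none of 29 groups of 4 fractions stood out, where chance alone gives about 1 in 20.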

How the results depend on the processing

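Of 146 recomputed values of the main comparisons 109 stayed within the spread over fractions, 29 moved further and 8 changed sign; of 411 values of single members 342, 68 and 1 did so. The cause of each shift was not tested. The log2 ratio of the summed members between models (1.81) was 1.43 in the MiSeq run and 1.49 with no upper gene limit. Tumor-type over other WB1P-Myc cells (2.41) was 1.77 in the MiSeq run, 0.70 with classes from each cell's marker UMIs, 3.16 at 600 UMIs per cell, 3.18 without stromal cells holding tumor markers (added after seeing the data), and 11.07 after subtracting free RNA (14.5% to 36.1% of UMIs in the WB1P-Myc fractions, estimated from Krt8 and Krt18 in macrophage-like cells), when the members' sum outside tumor-type cells fell to the floor. That sum takes in Col10a1, which stayed higher in fibroblast-like than tumor-type cells (3.05). Since Col10a1 stayed, more was subtracted for the other members together than was counted outside tumor-type cells. The 11.07 is therefore set by the floor of 3 counts. The same share was taken from every cell of a fraction, so other values after subtraction carry this limit. Col2a1 in Schwann-like over epithelial-like cells (2.62) was 3.60 in the MiSeq run, 3.46 under 10% mitochondrial UMIs, 2.31 from 200 genes up, 3.48 at Leiden 0.6, 2.93 clustering on all genes, 1.79 thinned, 1.85 with no gene filter, 3.31 without the shallow unnamed cluster (added after seeing the data) and 4.31 after subtraction. Col2a1 in Schwann-only over epithelial-only marker classes was 2.09, and 4.36 after subtraction. Cells were thinned anew for this check, and 2.09 is not the ratio of the marker-class levels given above.

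The share of member UMIs in tumor-type cells (95.3%) was 79.8% at Leiden 0.6, 70.4% with marker classes and 100% after subtraction. At Leiden 0.6 unnamed cells count as outside tumor-type. They were 987 WB1P-Myc cells, among them 484, 219 and 264 of the epithelial-like cells, so the rest is not all stromal. Marker classes left 510 cells unnamed and called 529 fibroblast-like, against 275 by clustering. How member UMIs fell among those was not tested. The 100% is for the summed members, with none left outside tumor-type cells after the excess subtraction, although Col10a1 stayed in fibroblast-like cells. The share of tumor-type cells with 3 or more matrix UMIs (53.8%) was 41.8% in the MiSeq run, 59.3% with no upper limit, 64.5% at Leiden 0.6, 62.6% with marker classes, 21.7% thinned, 57.9% with no gene filter and 38.0% after subtraction, and 64.6% or 41.7% at a minimum of 2 or 5 UMIs.

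Col2a1 in fibroblast-like over macrophage-like cells (-0.57) turned to 0.82 in the MiSeq run, 0.37 under 10% mitochondrial UMIs, 0.25 from 200 genes up, 0.35 clustering on all genes, 1.25 with marker classes, 0.28 with no gene filter and 0.12 without fraction 3, so its direction is not settled. After free RNA was subtracted it had no value, nor had Col2a1 between the models' fibroblast-like cells. Col10a1 in fibroblast-like over tumor-type cells (2.92) was -1.81 without its top 10 cells and 1.65 without the top cell, both chosen after seeing the data. Comp in Schwann-like over epithelial-like cells was -0.38 in the MiSeq run.

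Leaving out each fraction gave 1.72 to 1.88 for the models, 2.20 to 2.62 for the classes, 2.54 to 2.71 for Col2a1 in Schwann-like cells, 1.78 to 3.37 for Col10a1 (1.78 without fraction 4), -1.65 to 0.12 for Col2a1 in fibroblast-like cells, 94.3% to 95.9% and 52.3% to 55.4% for the shares, and 1.78 to 2.70 for the marker classes. Classes within WB1P-Myc share its 4 fractions: paired within each (the replicate block, added after seeing the data), the mean ratio was 2.46 for the classes, 2.63 for Col2a1 in Schwann-like cells, 2.14 for Col10a1 (higher in 3 of 4 fractions), -0.80 for Col2a1 in fibroblast-like cells and 2.33 for the marker classes. Fractions of the 2 models share only a number and were not paired. Depth limits Comp, Sox9 in Schwann-like cells and Papss2 in WB1P, each of which rests on few UMIs.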

Other observations

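Mmp13, the collagenase of hypertrophic cartilage and of activated stroma, lay in the fibroblast-like cells of the model that held almost no Col10a1. WB1P fibroblast-like cells held it at 163, 1619 and 545 CPM in fractions 2 to 4 (32, 349 and 92 UMIs) and at 0 in the 2 cells of fraction 1. WB1P-Myc fibroblast-like cells held 1 UMI in all. The fractions with more than 2 cells did not overlap, and pooled levels were 810 and 1.04 CPM. Macrophage-like cells held 143 CPM in WB1P and 30.4 CPM in WB1P-Myc. The gene was not called between the models, since fraction 1 of WB1P was at 0. Other matrix genes of fibroblast-like cells had closer levels in WB1P and WB1P-Myc, at 1667 and 955 CPM for Tnc, 363 and 230 CPM for Cilp, and 178 and 258 CPM for Prg4.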
